A study of Mus musculus with 4 samples.

Results

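The 7 keratins described here are the main keratins of the basal epidermal layer, Krt5, Krt14 and Krt15, the hair follicle keratin Krt19, and 3 keratins of simple, single-layered epithelia, Krt7, Krt8 and Krt18. They were chosen by gene symbol, and all 7 were among the 17721 genes with deposited values. The libraries came from the epidermis of back skin of C57BL/6 mice at postnatal day 63, taken after dispase treatment, which loosens epidermis from dermis. There were 2 LDB2-/- libraries and 2 wild type libraries, both genotypes on the same strain and at the same age. The labels do not give the kind of Ldb2 allele, the sex of the mice, or whether a library is 1 animal or a pool, so p-values measure the spread between these libraries, which may be technical.

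Keratins are the intermediate filament proteins of epithelial cells. A filament is built from pairs of an acidic type I keratin (here Krt14, Krt15, Krt18 and Krt19) and a basic type II keratin (Krt5, Krt7 and Krt8). Krt5 pairs with Krt14 in dividing basal keratinocytes, and Krt8 pairs with Krt18 in embryonic and glandular epithelia. Krt15 marks a subset of basal cells and, in the adult follicle, the bulge, where Krt19 is also used as a marker. In back skin, Krt8 and Krt18 are best known from Merkel cells, the touch receptor cells of the epidermis.

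The total count was 54095522 and 68436842 in LDB2-/- libraries 1 and 2, and 67307536 and 57517162 in wild type libraries 1 and 2. The targeted gene could not check the labels, because Ldb2 had 0 and 0 counts in LDB2-/- and 0 and 8 in wild type. All 7 listed keratinocyte genes were present in every library, with the epithelial cadherin gene Cdh1 at 104 and 90.8 FPKM in LDB2-/- and 143 and 162 FPKM in wild type. The 16 listed genes of the hair shaft and its inner root sheath summed to 130605 and 142838 CPM (counts scaled to library size) in LDB2-/-, against 193 and 906 CPM in wild type, and all 16 rose. All tested melanocyte (8 of 8), skeletal muscle (7 of 7), fibroblast (6 of 6) and endothelial (5 of 5) markers were also higher in LDB2-/-. The filter partly fixes these counts, since 2 of the melanocyte, 5 of the muscle and all 5 endothelial genes passed it through the LDB2-/- libraries alone. Mlana, Tyrp1, Trpm1, Tnni2 and the hair genes Krt72 and Krt85 reached 1 FPKM in only 1 wild type library. They also needed an LDB2-/- library to pass. Among the markers too low to test, Cdh5, Tie1 and Myh4 were also higher in LDB2-/-, and Lum and Pdgfra overlapped between the genotypes. The endothelial marker Kdr went the other way, at 0 and 0 CPM in LDB2-/- and 0.135 and 0.0774 CPM in wild type. Of 12400 genes tested, 57.2% passed an adjusted p of 0.05, with 28.4% called higher in LDB2-/- and 28.8% called lower. With the library total as the only scaling the median log2 fold change of all genes was -0.33, against -0.01, and 2248 genes were higher and 5096 lower, against 3521 and 3576 with the scaling used here. In bulk libraries, fewer cells of a type and less RNA per cell cannot be told apart.

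The basal keratins fell in LDB2-/- epidermis, and the simple epithelial keratins and Krt19 rose. Of the 7 genes, 3 were called lower and 4 higher, where 57.2% of all tested genes were called in some direction. For all 7, both libraries of a genotype lay above both of the other in FPKM, as they did for 83.7% of tested genes. Krt18 and Krt19 passed the expression filter through their LDB2-/- libraries alone, so their call is partly fixed by that filter. Krt8 reached 1 FPKM in only 1 wild type library, so it also needed an LDB2-/- library to pass. With no filter, the adjusted p in edgeR's quasi-likelihood test was 0.00195 for Krt18, 0.00188 for Krt19 and 0.00262 for Krt8.

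**Figure D1:**
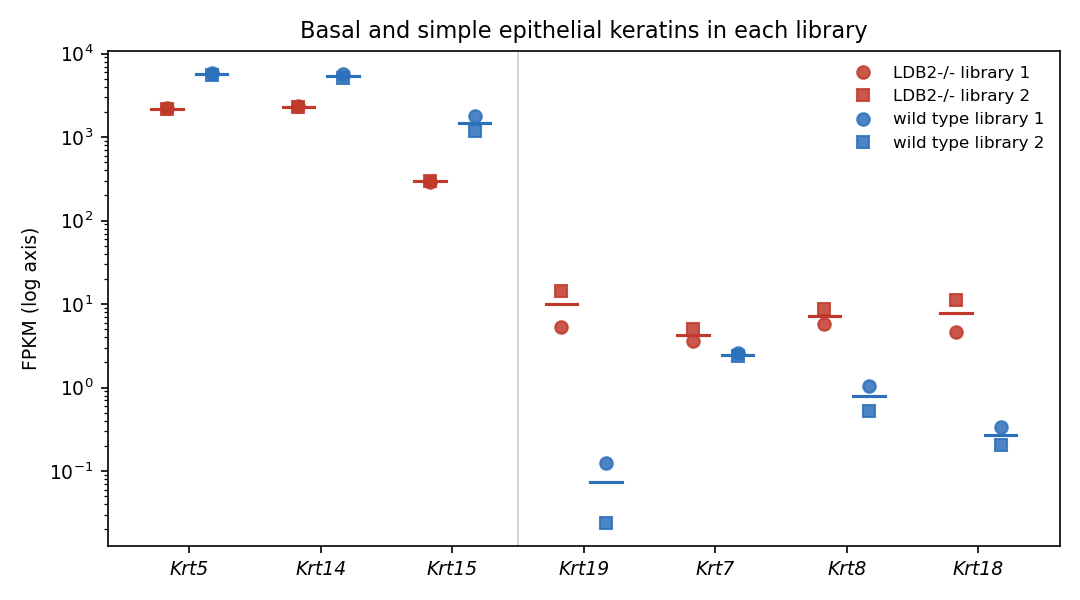
FPKM of each keratin (log axis) in the 2 LDB2-/- libraries (red) and the 2 wild type libraries (blue), with library 1 as a circle, library 2 as a square and the mean of each genotype as a bar. Krt5, Krt14 and Krt15 sit lower in LDB2-/-, Krt19, Krt7, Krt8 and Krt18 sit higher, and the genotypes do not overlap for any of the 7.

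The start regions of 3 keratins that rose (Krt7, Krt8 and Krt18) and 1 that fell (Krt5) are shown for comparison, from RefSeq on GRCm38.p6, the assembly behind mm10. Of the 7 keratins 5 had a sequence, Krt15 and Krt19 did not, and that of Krt14 starts 1480 bases inside the annotated gene and is not shown. Each run holds 150 bases before the annotated start and 20 from it on, 5′ to 3′ on the gene's strand. Capitals mark matches, on either strand, to 4 motifs. The core promoter box was searched as TATAAA and, in a looser form that can overlap the first, by the letters ATAAAA. The consensus of AP-2 factors was searched as GCCNNNGGC, and the GC box, which can overlap it, by the letters GGGCGG. Krt5 is at chr15:101712886-101713055 (minus strand), Krt7 at chr15:101412253-101412422 (plus strand), Krt8 at chr15:102004323-102004492 (minus strand) and Krt18 at chr15:102028066-102028235 (plus strand).
Krt5: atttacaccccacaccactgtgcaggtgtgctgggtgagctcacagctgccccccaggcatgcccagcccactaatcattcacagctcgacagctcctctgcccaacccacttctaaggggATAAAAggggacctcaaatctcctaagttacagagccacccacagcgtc
Krt7: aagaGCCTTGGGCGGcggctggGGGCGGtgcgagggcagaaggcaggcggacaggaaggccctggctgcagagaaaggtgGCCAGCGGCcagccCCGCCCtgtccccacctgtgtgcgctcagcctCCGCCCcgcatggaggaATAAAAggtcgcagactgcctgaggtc
Krt8: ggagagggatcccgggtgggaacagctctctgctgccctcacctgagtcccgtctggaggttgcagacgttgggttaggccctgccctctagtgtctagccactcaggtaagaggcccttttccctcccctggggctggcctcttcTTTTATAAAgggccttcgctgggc
Krt18: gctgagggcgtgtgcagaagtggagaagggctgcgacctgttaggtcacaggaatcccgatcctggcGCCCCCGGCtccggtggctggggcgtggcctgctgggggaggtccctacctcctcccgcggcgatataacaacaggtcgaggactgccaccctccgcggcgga

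In windows of 300 bases, 250 before and 50 after the start, Krt5 held the looser form from 29 to 24 bases before its start. Krt8 held the strict form across its annotated start, on both strands within 1 stretch, and Krt7 the looser form from 7 to 2 bases before its start. Krt7 also held 4 GC boxes and 2 AP-2 matches, and Krt18 held 1 AP-2 match, from 83 to 75 bases before its start. Over all 32851 such windows, 13.6% held the strict core promoter box, 18.5% its looser form, 16.6% the AP-2 consensus and 35.7% a GC box. The AP-1 consensus (TGA and TCA with any base between them) was in 7.81% of windows and in none of these 4. CpG dinucleotides numbered 21 in the Krt7 window and 17 in that of Krt18, against 6 in Krt5 and Krt8 and a median of 7 over all windows. These matches describe the letters of the windows only, and the looser form was added to the search after the sequences were seen.

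Krt5, the type II keratin of basal cells (gene ID 110308, chromosome 15, 101707069 to 101712905, minus strand, 9 exons, mm10), was at 2241 and 2142 FPKM in LDB2-/- and 5822 and 5475 FPKM in wild type. The libraries of each genotype lay close together, the higher 1.05 times the lower in LDB2-/- and 1.06 times in wild type. Its log2 fold change, LDB2-/- over wild type, was -1.05 with an SE of 0.19 (edgeR adjusted p = 0.00565), a level 2.07-fold lower. With same-numbered libraries as a block, Krt5 was no longer called (-1.05, edgeR adjusted p = 0.0724). It was the gene with the third and second highest FPKM in the wild type libraries and ranked 28 and 43 in the LDB2-/- libraries.

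Krt14, the type I partner of Krt5 (gene ID 16664, chromosome 11, 100203162 to 100207510, minus strand, 8 exons), had 2346 and 2274 FPKM in LDB2-/- against 5676 and 5098 FPKM in wild type. As for Krt5, the gap between the genotypes exceeded the gap within either: the lowest wild type value was 2.17 times the highest LDB2-/- value. The log2 fold change of Krt14 was -0.90 (SE 0.19, adjusted p = 0.0092), which is 1.87-fold lower. Like Krt5, it was no longer called with same-numbered libraries as a block (-0.90, edgeR adjusted p = 0.0918). FPKM alone, which is not TMM-scaled, gives larger folds, with wild type 2.33 times LDB2-/- for Krt14 and 2.58 times for Krt5.

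The type I keratin Krt15 (gene ID 16665, chromosome 11, 100131759 to 100135949, minus strand, 8 exons) stood at 288 and 300.2 FPKM in LDB2-/- and at 1777 and 1185 FPKM in wild type. Its LDB2-/- values were close together, whereas wild type library 1 was 1.5 times wild type library 2. The log2 fold change was -2.01 with an SE of 0.24 (adjusted p = 0.00138), which is 4.04-fold lower. Among tested genes, 5.35% fell at least as far as Krt15, against 16.4% for Krt5 and 19.5% for Krt14. Left out in turn, the libraries gave Krt15 folds from 3.19 lower (wild type replicate 1 left out) to 4.89 lower (replicate 2 of that genotype left out).

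Krt19, the type I keratin with the shortest coding sequence of the 7 (gene ID 16669, chromosome 11, 100140810 to 100145926, minus strand, 6 exons, 403 codons), was nearly absent from wild type. It had 401 and 1353 counts in LDB2-/- libraries 1 and 2, and 11 and 2 counts in wild type libraries 1 and 2. In FPKM this was 5.28 and 14.5 in LDB2-/- and 0.125 and 0.0237 in wild type. LDB2-/- library 2 was 2.75 times library 1, so the libraries of this genotype differed more for Krt19 than for any basal keratin. Krt19 rose, with a log2 fold change of 7.35 and an SE of 0.82 (adjusted p = 0.00102), and 0.581% of tested genes rose at least as far. The 2 counts of wild type library 2 have an exact Poisson interval (95%) of 0.242 to 7.22 and the 11 counts of library 1 of 5.49 to 19.7, intervals that cover counting error only. The fitted fold of 163 moved with single libraries. It was 85.4 without LDB2-/- replicate 2, and leaving out wild type replicate 1 gave 466 and wild type replicate 2 gave 103.

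Krt8, the type II keratin of simple epithelia (gene ID 16691, chromosome 15, 101996711 to 102004342, minus strand, 9 exons), had 580 and 1096 counts in LDB2-/- against 130 and 55 in wild type, or 5.85 and 8.71 FPKM against 1.05 and 0.520 FPKM. The lower LDB2-/- library still held 5.55 times the FPKM of the higher wild type library. Krt8 rose, with a log2 fold change of 3.52 and an SE of 0.44 (adjusted p = 0.00151), an 11.5-fold higher level, or 17.7-fold without wild type replicate 1.

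Its type I partner Krt18 (gene ID 16668, chromosome 15, 102028216 to 102032026, plus strand, 7 exons) had 358 and 1086 counts in LDB2-/- and 32 and 17 in wild type. Its FPKM was 4.66 and 11.1 in LDB2-/- and 0.334 and 0.206 in wild type. As with Krt19, LDB2-/- library 2 was the higher, at 2.39 times library 1. Krt18 rose, with a log2 fold change of 5.18 and an SE of 0.59 (adjusted p = 0.0011), 36.2-fold, which fell to 20.5-fold without LDB2-/- replicate 2. On log2(FPKM + 1), where the pseudocount of 1 compresses low values, the differences of Krt19, Krt18 and Krt8 were 3.20, 2.71 and 2.21, and each kept an adjusted p under 0.05 in limma.

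Krt7, a type II keratin of glandular and ductal epithelia (gene ID 110310, chromosome 15, 101412403 to 101427806, plus strand, 9 exons), was low in both genotypes. There were 312 and 549 counts in LDB2-/- and 280 and 220 in wild type, which is 3.58 and 4.96 FPKM in LDB2-/- and 2.58 and 2.37 FPKM in wild type. The genotypes did not overlap, but the lower LDB2-/- library was only 1.39 times the higher wild type library, the same factor as between the LDB2-/- libraries. Krt7 rose, with a log2 fold change of 1.11 and an SE of 0.28 (adjusted p = 0.0178), 2.16-fold. The call was lost without LDB2-/- replicate 2 (0.81, adjusted p = 0.0597) and without wild type replicate 2 (1.04, adjusted p = 0.0543). Over its 14 alternatives the adjusted p ran from 0.00261 to 0.0597.

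**Figure D2:**
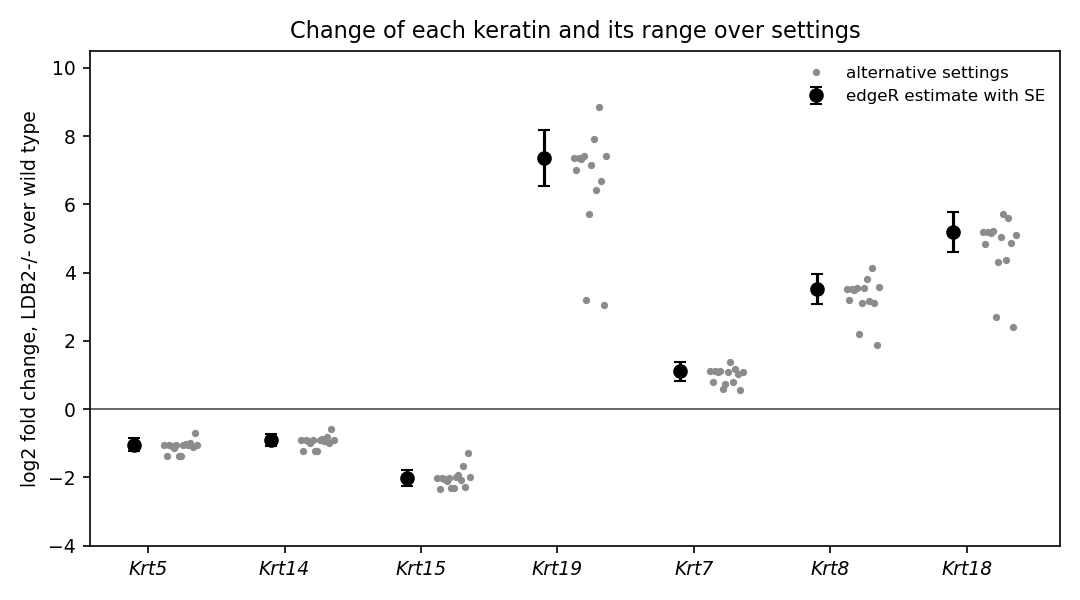
Log2 fold change of each keratin, LDB2-/- over wild type, as estimated by edgeR with its SE (black) and under each alternative setting (grey). Krt5, Krt14 and Krt15 lie below 0 and the other 4 above 0 in every setting that tested them, while the size of the Krt19, Krt18 and Krt8 changes depends on the setting.

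The authors' deposited table gives signed folds of LDB2-/- over wild type close to these: -2.08 for Krt5, -1.88 for Krt14, -4.07 for Krt15, 167 for Krt19, 2.15 for Krt7, 11.5 for Krt8 and 36.3 for Krt18. Of the genes with an adjusted p in the authors' deposited table, 47.6% passed 0.05, and the highest adjusted p of the 7 keratins there was 0.00644, for Krt7.

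The order of levels per transcript length differed between the genotypes, for Krt5 and Krt14 and among the 4 low keratins. In LDB2-/-, mean FPKM ran from Krt14 (2310 ± 51.5, SD, n = 2) and Krt5 (2191 ± 70.1) through Krt15 (294 ± 8.84) to Krt19 (9.90 ± 6.53), Krt18 (7.89 ± 4.57), Krt8 (7.28 ± 2.02) and Krt7 (4.27 ± 0.975). The libraries of Krt19, Krt18 and Krt8 overlapped there, so the order of these 3 is not resolved. In wild type, the order was Krt5 (5649 ± 245), Krt14 (5387 ± 409), Krt15 (1481 ± 418), Krt7 (2.47 ± 0.147), Krt8 (0.787 ± 0.377), Krt18 (0.270 ± 0.0905) and Krt19 (0.0745 ± 0.0718). There Krt5 and Krt14 overlapped, though Krt5 was the higher within each library, and the other neighbours did not overlap. Krt7 was the lowest of the 7 within each LDB2-/- library, although its range overlapped that of Krt18, and the highest of the 4 low keratins in wild type.

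Krt5, Krt14 and Krt15 together summed to 4875 and 4716 FPKM in LDB2-/- and 13275 and 11758 FPKM in wild type, or 0.859% and 0.789% of all FPKM in LDB2-/- and 2.52% and 2.39% in wild type. Krt8, Krt18 and Krt19 together summed to 15.8 and 34.3 FPKM in LDB2-/- and 1.51 and 0.751 FPKM in wild type. The basal keratins thus still exceeded the simple keratins and Krt19 by 309 and 137 times in LDB2-/-, against 8770 and 15700 times in wild type.

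Ratios within a library do not depend on how libraries are scaled, and 5 were compared. Krt5 and Krt14, which pair in the filament, stayed near equal: the Krt5 over Krt14 ratio of FPKM was 0.955 and 0.942 in LDB2-/- and 1.03 and 1.07 in wild type. Krt8 over Krt18 was 1.26 and 0.783 in LDB2-/-, against 3.15 and 2.52 in wild type, a difference of -1.51 on the log2 scale. The wild type ratio rests on 32 and 17 counts of Krt18. Krt15 over Krt14 was 0.123 and 0.132 in LDB2-/- and 0.313 and 0.232 in wild type, a difference of -1.08. The Krt19 over Krt14 ratio was 0.00225 and 0.00639 in LDB2-/- and 2.21e-05 and 4.65e-06 in wild type. In wild type this ratio rests on 11 and 2 counts of Krt19. Krt7 over Krt18 was 0.769 and 0.446 in LDB2-/- and 7.70 and 11.5 in wild type. No ratio overlapped between the genotypes, and each of the 5 two-sided exact permutation tests gave p = 0.333 (also 0.333 adjusted), the smallest that 2 against 2 libraries allow.

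**Figure D3:**
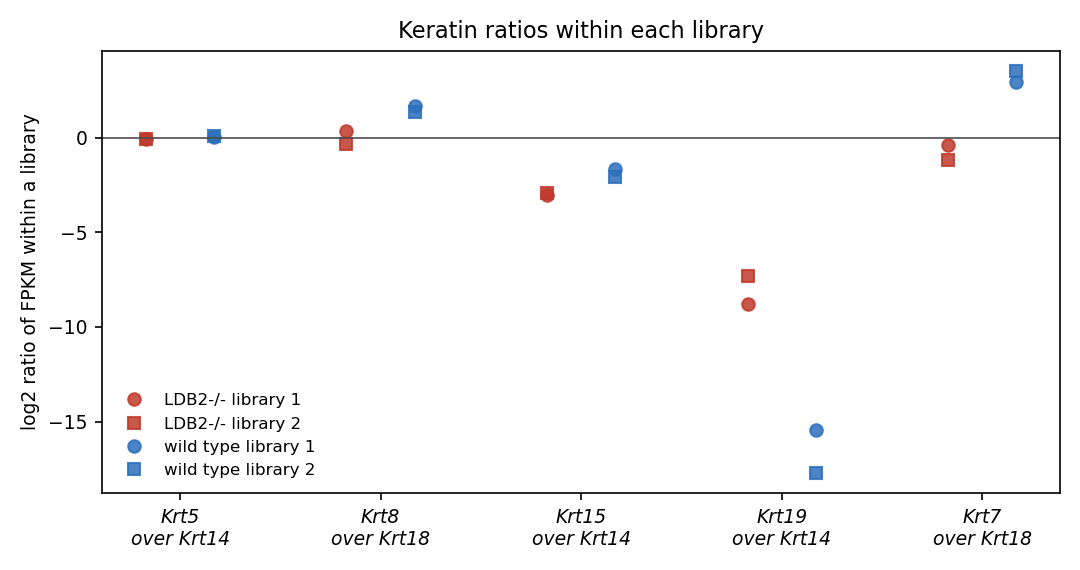
Log2 ratio of the FPKM of 2 keratins within each library, LDB2-/- in red and wild type in blue. Krt5 over Krt14 stays near 0 in all 4 libraries, while Krt8 over Krt18 and Krt7 over Krt18 are lower and Krt19 over Krt14 is higher in LDB2-/-.

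By the root mean square distance between centred log2 profiles over the 4 libraries, Krt5 and Krt14 were alike to 0.0773 log2 units and lay 0.502 and 0.564 from Krt15. Krt18 and Krt19 were 0.381 apart and Krt8 and Krt18 0.452. Among other tested genes with a mean of 5 FPKM or more, those nearest to Krt5 were Tnip2 (0.0061), Hsd3b7 (0.019) and Dok3 (0.0207), and those nearest to Krt14 were Sdc4 (0.0174), Tgm5 (0.0218) and Prkra (0.0229). Sdc4 encodes the proteoglycan syndecan, and Tgm5 a transglutaminase of the epidermis. Nearest to Krt15 were Sectm1a (0.0521), Serpina12 (0.0537) and Cldn23 (0.0743), and nearest to Krt7 were Tmem256 (0.00692), Timm17b (0.0172) and Zfp668 (0.0366). Distances to the nearest genes were longer for Krt19, Krt18 and Krt8. Gpx3, a secreted glutathione peroxidase, was the nearest to both Krt19 (0.157) and Krt18 (0.347), at 18.3 and 35.5 FPKM in LDB2-/- and 1.26 and 0.888 FPKM in wild type. It was followed by Npy, the neuropeptide Y gene (0.368), and Pla2g2e (0.394) for Krt19, and by Sprr1a (0.364) and Cox4i2 (0.372) for Krt18. For Krt8 the nearest were Cited4 (0.144), Pdlim7 (0.175) and Dbn1 (0.176). The distances rest on log2(CPM + 0.5), and the wild type CPM of Krt19 (0.148 and 0.0309) and Krt18 (0.432 and 0.263) lay below that 0.5. Their distances, also to each other, thus depend on the pseudocount. The log2 fold change of Gpx3 was 4.97, against 7.35 for Krt19 and 5.18 for Krt18. With 4 libraries in 2 genotypes, such distances mostly restate the genotype difference.

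Keratins next to each other in the genome moved in different directions in some cases and together in others. Krt15 and Krt19 are direct neighbours in the type I cluster of chromosome 11, with 4860 bases between them, and Krt15 fell while Krt19 rose. Krt14, which fell, is followed by Krt16, whose log2 fold change of -0.17 did not pass the test (adjusted p = 0.342), though it did with the library total alone (-0.48, adjusted p = 0.0289). In the type II cluster of chromosome 15, Krt5 lies between Krt6a, a keratin of the outer root sheath and of wounds, which rose by 1.33, and Krt71, a keratin of the inner root sheath, which rose by 8.35. Krt8 and Krt18, with 23873 bases between them at the end of that cluster, both rose, and Krt78, the keratin on the other side of Krt8, fell by 2.99. Of 48 other keratin genes with deposited values 38 were tested, of which 29 rose, 7 fell and 2 were not called. Among all genes tested 28.4% were called higher and 28.8% lower. The median log2 fold change of these 38 keratins was 6.43, against -0.01 over all genes tested.

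**Figure D4:**
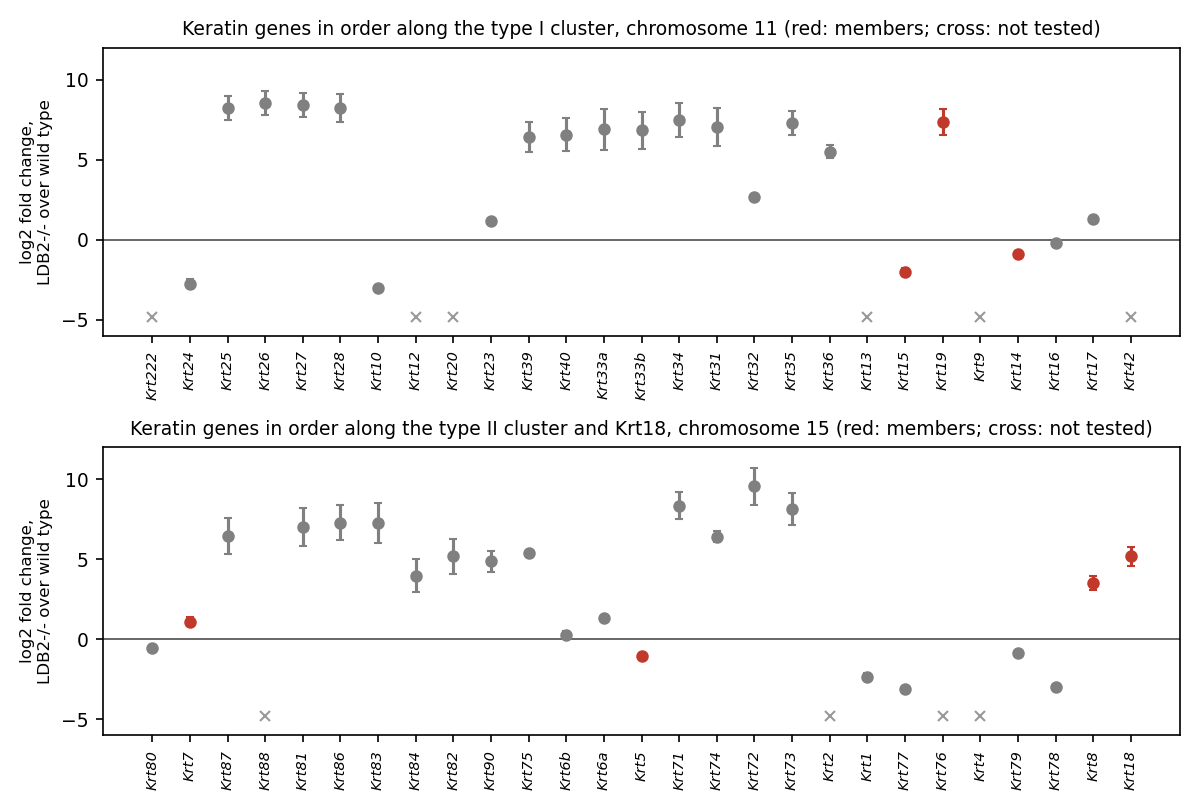
Log2 fold change (LDB2-/- over wild type, with SE) of keratin genes in their order along chromosome 11 (top) and chromosome 15 (bottom), the 7 keratins described here in red, other keratins in grey and genes too low to test as crosses at the bottom of the panel. Krt15 and Krt19 are adjacent and lie on opposite sides of 0, and Krt8 and Krt18 are adjacent and both above it.

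Genes that hold the basal keratin network to the basement membrane fell with Krt5 and Krt14. Of 12 genes of basal adhesion 10 fell, with a median log2 fold change of -1.56, against -0.01 over all genes and 28.8% of all genes called lower. Col17a1, the hemidesmosome collagen, fell by 2.95 (adjusted p = 0.000164), and Itga6, the integrin chain of the hemidesmosome, fell by 2.38. Lamb3, a laminin chain beneath it, fell by 2.31, and Dst, the linker between keratin and the hemidesmosome, fell by 2.12. Itgb4, the partner of Itga6, was at 16.3 and 15.6 FPKM in LDB2-/- and 56.6 and 71.6 FPKM in wild type. Cdh3, the P-cadherin gene, rose by 0.92 (adjusted p = 0.00097), and the tetraspanin gene Cd151 was not called (0.01), though it was called lower with the library total alone (-0.31, adjusted p = 0.0384).

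Genes whose proteins bind or organize keratins were called about as often as all genes. Of 13 such genes, 4 rose, 5 fell and 4 were not called, where 28.4% of all tested genes were higher and 28.8% lower, and the median was 0.07 (-0.25 when scaled by library total). Dst and Eppk1, the epiplakin gene, fell (-2.12 and -2.06), followed by Klhl24 (-1.70), a ubiquitin ligase adaptor that acts on KRT14 in human keratinocytes, and by the cytolinker Plec (-0.94) and the desmosomal plaque gene Pkp1 (-0.56). Sfn, which encodes a keratin-binding adaptor of stratified epithelia, rose by 1.44, Evpl, the envoplakin gene, by 1.39, Pkp3 by 1.31 and Fam83h, a keratin organizer, by 0.77. Dsp, the desmosomal linker of keratin filaments, was not called, at 283 and 227 FPKM in LDB2-/- and 337 and 382 FPKM in wild type (-0.18, adjusted p = 0.429).

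Most transcription factors known to act on epidermal keratin genes were lower. Of 12 listed, 8 fell, 1 rose and 3 were not called, with a median of -0.83, where 28.8% of all tested genes were lower and 28.4% higher. Trp63, the master regulator of stratified epithelium that activates Krt5 and Krt14, fell by 1.31 (SE 0.13, adjusted p = 0.000675), to 48.0 and 40.2 FPKM in LDB2-/-, against 121 and 135 FPKM in wild type. Satb1, a chromatin organizer, fell by 4.07, as did Pou2f3 (-2.18), Klf5 (-1.75) and Klf4 (-1.24). Satb1 passed the expression filter through its wild type libraries alone, so its call is partly fixed by that filter. Tfap2a, an AP-2 factor, rose by 0.71 while its paralog Tfap2c fell by 0.45. Cebpb was not called (-0.90, adjusted p = 0.609) and differed between the LDB2-/- libraries, at 164 and 2.42 FPKM, against 190 and 188 FPKM in wild type.

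The tested suprabasal keratins, of a group that replaces Krt5 and Krt14 as cells leave the basal layer, had larger negative log2 fold changes than either. All 4 tested of 6 listed fell, with a median of -3.01, where 28.8% of all tested genes were called lower. Krt2, too low to test, was higher in LDB2-/-, at 0.905 and 0.916 FPKM against 0.697 and 0.446 FPKM in wild type. Krt76 was at or near 0 in every library. Log2 fold changes were -3.08 for Krt77, -3.03 for Krt10, -2.99 for Krt78 and -2.33 for Krt1, against -1.05 for Krt5 and -0.90 for Krt14. The difference between these changes was not tested. Of 6 keratins of the outer root sheath, companion layer and wounds, 3 rose and 1 fell, with a median of 0.78. The shares over all tested genes were 28.4% higher and 28.8% lower. Krt75, of the companion layer, rose by 5.38, Krt6a by 1.33 and Krt17, a basal-type keratin of the follicle, by 1.28, while Krt79, of the upper follicle, fell by 0.86.

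**Figure D5:**
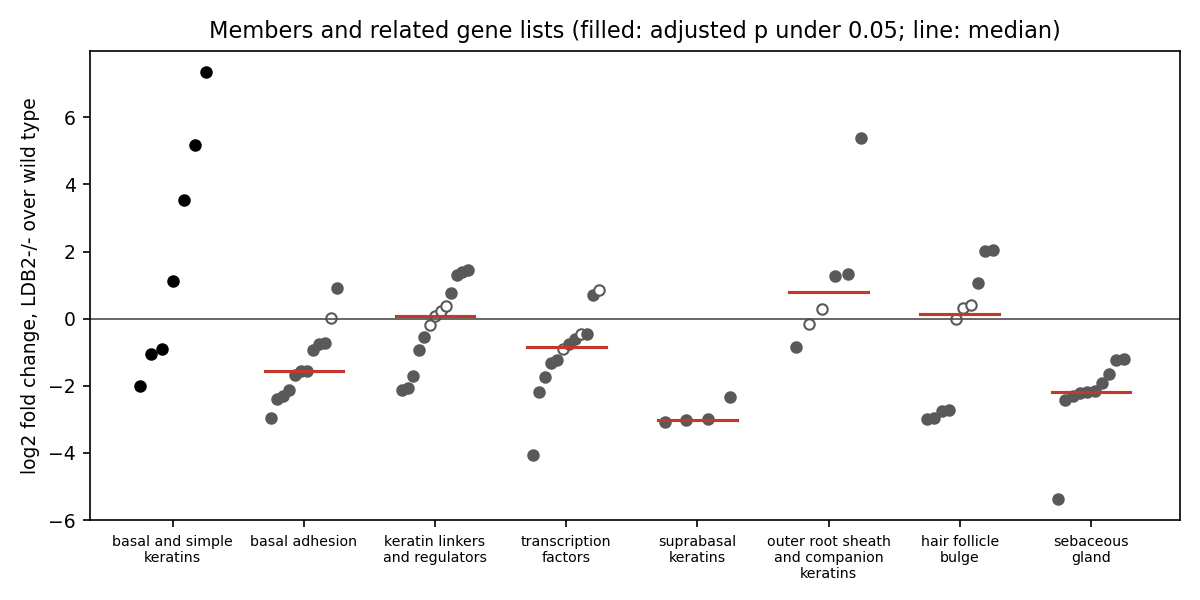
Log2 fold changes (LDB2-/- over wild type) of the 7 keratins and of the tested genes of 7 related lists, filled where the adjusted p is under 0.05, with each list's median as a red line. The members fall on both sides of 0, basal adhesion genes mostly below it, and all tested suprabasal keratins and sebaceous genes below it.

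Markers of cells that can hold Krt8, Krt18, Krt19, Krt15 or Krt7 were set beside them. The Merkel cell list was at or near 0 in every library: its 8 genes summed to 1.93 and 1.08 CPM in LDB2-/- and 2.93 and 4.36 in wild type, none passed the filter, and 5 had no count in LDB2-/-. Among these 5 were Krt20, the keratin specific to Merkel cells, and Atoh1, their lineage factor. A count of 0 allows up to 0.0555 and 0.0438 CPM in LDB2-/- libraries 1 and 2, counting error only. Chga, which is not specific to Merkel cells, had much of the wild type sum. The other 7 genes summed to 1.51 and 0.571 CPM in LDB2-/- and 1.27 and 1.24 CPM in wild type, where the genotypes overlapped. The part of Merkel cells in the rise of Krt8 and Krt18 was not tested.

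Krt15 and Krt19 are also used as markers of the bulge, and other bulge markers were called in shares near those of all genes. Of 10 bulge genes 3 rose, 4 fell and 3 were not called, where 28.4% of all tested genes were higher and 28.8% lower, with a median of 0.14 (-0.17 with the library total alone) and a summed level of 750 and 678 CPM in LDB2-/- against 3281 and 3309 CPM in wild type. Col17a1 and Postn carried that sum, and the other 8 genes summed to 308 and 298 CPM in LDB2-/- and 283 and 237 CPM in wild type. Nfatc1, a quiescence factor of bulge cells, fell by 2.99, as did Col17a1 (-2.95), Postn (-2.74) and Krt24 (-2.73). The call of Krt24 is partly fixed by the filter, which it passed through its wild type libraries alone. Tbx1 rose by 2.05, Tcf7l1 by 2.01 and Lhx2 by 1.07. Cd34, the surface marker of the bulge, was at 10.2 and 12.3 FPKM in LDB2-/- and 13.5 and 7.70 FPKM in wild type and was not called. All 10 sebaceous gland genes, from a gland that expresses Krt7, fell, with a median of -2.18, while Krt7 rose. The largest falls were those of Mc5r (-5.38), Scd1 (-2.42), Far2 (-2.32) and Dgat2l6 (-2.23). Mc5r and Dgat2l6 passed the expression filter through their wild type libraries alone, so their calls are partly fixed by that filter.

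Hair, melanocyte, muscle, endothelial and fibroblast markers that passed the filter rose in the same libraries as Krt8, Krt18 and Krt19. Their part in the rise of these keratins was not tested. The 8 endothelial markers summed to 56.7 and 63.1 CPM in LDB2-/- and 4.29 and 7.27 in wild type. The 8 fibroblast markers summed to 230 and 293 in LDB2-/- and 95.4 and 62.4 in wild type, the 8 skeletal muscle markers to 62.4 and 54.8 in LDB2-/- and 5.35 and 3.98 in wild type, and the 8 melanocyte markers to 1465 and 1682 in LDB2-/- and 39.1 and 62.6 in wild type. Of 7 measured immune markers 1 rose and 4 fell (median -0.80), and of the 7 keratinocyte markers 1 rose and 3 fell (median -0.33). Of all tested genes 28.4% were called higher and 28.8% lower, 57.2% in some direction. The keratinocyte list was called about as often as all genes. The direction of the keratinocyte sum depended on the scaling. It was 9446 and 9721 CPM in LDB2-/- and 8893 and 8792 CPM in wild type with TMM, but 8668 and 8451 CPM in LDB2-/- and 9798 and 9880 CPM in wild type with the library total alone, where 5 of the 7 genes fell.

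Some reads may not be assigned with certainty. Krt5 overlaps the miRNA gene Gm44323 on the opposite strand, Krt7 the antisense gene Gm671 and Krt8 the noncoding RNA gene Gm36026 on the opposite strand, and whether counting used strand is not given in the sources used here. Krt8 also has an annotated pseudogene, Krt8-ps. None of these 4 gene symbols is among the genes with deposited values. Any reads from these genes that were counted for Krt5, Krt7 or Krt8 thus cannot be told apart. The overlaps are of whole gene spans, introns included, and whether such reads exist was not tested.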

How the data were processed

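RNA was measured in 2 LDB2-/- and 2 wild type libraries, made with the Illumina TruSeq RNA kit per the labels' protocols. Tools named in the submitters' processing notes are StringTie 1.3.4d, HISAT2 2.1.0 and bcl2fastq 1.8.4, with the build mm10. The authors deposited raw read counts per gene, and FPKM, which are scaled by transcript length and library size, per the file headers. Also deposited were log2 values that the authors normalized by an unnamed method, a signed fold change, a score that is negative where LDB2-/- is lower, and Benjamini-Hochberg adjusted p-values.

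The 12400 genes that reached 1 FPKM in 2 or more libraries were tested with edgeR 4.0.16 (quasi-likelihood, two-sided, TMM scaling, no covariate) in R 4.3.3, adjusted over all tested genes by Benjamini-Hochberg with a threshold of 0.05. TMM factors were 0.920 and 0.872 in LDB2-/- and 1.10 and 1.13 in wild type. SEs are those implied by the F statistic. The test was checked on simulated data. Summed levels are counts per 1e+06 of the TMM-scaled library (CPM). Likeness used log2(CPM + 0.5). Alternatives were other scalings, filters and pseudocounts, DESeq2 1.42.0, limma 3.58.1, a replicate block and each library left out. Positions came from RefSeq and exons and overlaps from GENCODE M21, and figures from matplotlib 3.10.9. Named genes were the 7 keratins, Ldb2, up to 4 tested genes per list with the largest change, list genes called against their list's median, and the 3 nearest genes per keratin. Other list genes were named after their values were seen. The keratins and lists were chosen with earlier results of these data known.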

Additional observations from a re-analysis of the deposited data

How the results depend on the processing

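Each of the 7 keratins kept its direction under every alternative that was run, and Krt15, Krt19, Krt8 and Krt18 also kept an adjusted p under 0.05. With a mean FPKM of 5 or more required, Krt19, Krt7, Krt8 and Krt18 were not tested. Krt7 was no longer called without LDB2-/- replicate 2 (0.81) and without wild type replicate 2 (1.04), in a range of 0.81 to 1.37 over the libraries left out. A lone library is there assumed to vary like the other genotype. With the replicate block, 6092 genes were called, and Krt5 (-1.05, adjusted p = 0.0724) and Krt14 (-0.90, adjusted p = 0.0918) were not. No label ties same-numbered libraries to each other. Their deviations correlated at -0.198 over 12400 genes, but 2 libraries per genotype are too few to show whether they were paired. Crossed pairs as a block, added after seeing the data, called 7269 genes. The size of the rises depended on the scale: log2 fold changes ran from 3.06 to 8.86 for Krt19, 2.39 to 5.71 for Krt18 and 1.88 to 4.14 for Krt8. The lowest of each came from limma on the authors' normalized values, also added after seeing the data, where Krt15 fell by 1.3. The 5 ratios kept their direction with counts in place of FPKM and without each library. Calls over all genes ran from 5101 of 8567 tested, with a mean FPKM of 5 or more required, to 7743 of 12400, with limma on log2(FPKM + 1). With the library total alone or with limma on FPKM, 31.1% or fewer of the calls were higher, against 49.6%. Below about 20 counts, as for Krt19 in wild type libraries 1 and 2 and Krt18 in wild type library 2, depth limits the fold.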

Other observations

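Cebpb, one of the transcription factors listed above, had 13698 counts in LDB2-/- library 1 and 257 in LDB2-/- library 2, against 19720 and 16686 in wild type. It was chosen after its values were seen. It is 1 of 15 genes of at least 5 FPKM that differed by 10 times or more between the LDB2-/- libraries, and 21 did so between the wild type libraries. The noncoding RNA Neat1 behaved alike, at 198 and 0.719 FPKM in LDB2-/- and 340 and 304 FPKM in wild type. Some of these genes are near copies of each other. Rps27 was at 1854 and 2187 FPKM in LDB2-/- and 1844 and 6.30 FPKM in wild type, where its copy Rps27rt was at 3.86 and 7.58 FPKM in LDB2-/- and 13.3 and 1565 FPKM in wild type. Atp6v0c was at 188 and 8.30 FPKM in LDB2-/- and 4.80 and 130 FPKM in wild type, and its pseudogene Atp6v0c-ps2 at 0.0747 and 186 FPKM in LDB2-/- and 136 and 0.00888 FPKM in wild type. None of the 7 keratins described here was among these genes. The hair keratins Krt31, Krt33a, Krt33b, Krt81 and Krt83 were, each higher in wild type library 2. Krt31, for instance, was at 2.44 and 25.1 FPKM in wild type libraries 1 and 2.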
